A study of Mus musculus with 70 samples.

Results

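Matrix metalloproteinases (MMPs) are zinc-dependent proteases that cut collagen, elastin and other proteins of the extracellular matrix, and the tissue inhibitors of metalloproteinases (TIMPs) bind their active sites and block them. In the lung, the balance between both families is tied to the laying down and remodelling of the alveolar walls, and neutrophils and macrophages carry some of these enzymes into the tissue. Capicua, encoded by Cic, is a transcriptional repressor that works with ATXN1 and ATXN1L, and MMPs have been linked to the alveolar defect of mice in which this complex is disturbed. The genes described here were chosen by name for that link, with earlier results of these data known: the proteases Mmp2, Mmp3, Mmp8, Mmp9, Mmp11, Mmp12 and Mmp14 and the inhibitors Timp1, Timp2 and Timp3. All 10 were found among the 50789 gene identifiers of the count table.

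Reads per gene were counted in 70 mouse samples. The mice either had no short Capicua isoform (Cic-S-KO), had no long Capicua isoform (Cic-L-KO) or were wild type (WT). Their lungs were collected on postnatal day 6, and their cortices and cerebella at an age of 12 weeks. WT samples were littermates of both lines, pooled, and the labels do not say which line each came from. No promoter, Cre driver or further allele is named in the labels. Each of the 9 groups held 8 samples, except Cic-S-KO cortex and Cic-S-KO cerebellum with 7. Nothing in the labels states that replicates came from separate animals, so p-values measure the spread between these samples, which may be technical.

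Total counts ranged from 17798655 to 35523037 per sample. Counts of the whole Cic gene cannot tell its isoforms apart and therefore do not check the knockout labels: the group means lay between 135 and 298 CPM (counts scaled to library size), and in cortex both knockouts were above WT, at 251 ± 7.6 (SD, n = 7) in Cic-S-KO and 298 ± 17 (SD, n = 8) in Cic-L-KO against 162 ± 8.6 (SD, n = 8). Summed CPM of 3 markers of cerebellar granule and Purkinje cells were 1991 to 2861 in cerebellum, 100.2 to 219.7 in cortex and at most 2.27 in lung, as the tissue labels state. That highest lung value was in Cic-S-KO, where the median was 0. Neuron markers in Cic-S-KO lung had a median sum of 3.58 CPM and a highest of 20.6. Choroid plexus markers varied widely within each brain group, and replicate 6 of Cic-S-KO cerebellum had the highest choroid plexus sum of that region (4047 CPM) and its highest oligodendrocyte sum (9362 CPM). All lung samples are labelled batch 1 and all brain samples batch 2, so that tissue, age and batch cannot be told apart in any comparison between lung and brain.

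The 10 genes lie on 7 chromosomes (GRCm38, GENCODE M21 positions). Mmp12 (chr9:7344381-7369499), Mmp3 (chr9:7445822-7455975) and Mmp8 (chr9:7558456-7568485) belong to a cluster of 10 Mmp genes within 427 kb of chromosome 9, and all 3 are on the plus strand. Mmp2 is at chr8:92827291-92853420, Mmp9 at chr2:164940780-164955850, Mmp14 at chr14:54431612-54445364, Mmp11 at chr10:75923222-75936496, Timp1 at chrX:20870166-20874735, Timp2 at chr11:118301069-118355740 and Timp3 at chr10:86300372-86349506. Timp3 lies inside Syn3, a neuronal gene on the opposite strand, and 1733 of its exon bases (21.3%) also lie in Syn3 exons. Mmp11 shares 155 exon bases with Chchd10 and Mmp12 shares 157 with Mmp1b, both on the opposite strand. Whether counting used strand is not given in the sources used here, so reads from those bases cannot be assigned to a strand and the levels of these 3 genes are uncertain to that extent. Timp1 lies inside Syn1, on the opposite strand, and Cep295nl lies inside Timp2, on the same strand. Each of these 2 pairs shares 0 exon bases.

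The start regions of the genes that were higher in Cic-S-KO lung are shown here, since Capicua is a DNA-binding repressor and these are the sequences next to the genes that moved. RefSeq sequence (GRCm38.p6) from 250 bases before to 50 after the transcript start was found for 8 of the 10 genes, with 2 starts for Mmp12. Mmp2 and Mmp9 had no entry. Capitals mark the motif matches found, on either strand.
Mmp12, first start, chr9:7344147-7344446, plus strand: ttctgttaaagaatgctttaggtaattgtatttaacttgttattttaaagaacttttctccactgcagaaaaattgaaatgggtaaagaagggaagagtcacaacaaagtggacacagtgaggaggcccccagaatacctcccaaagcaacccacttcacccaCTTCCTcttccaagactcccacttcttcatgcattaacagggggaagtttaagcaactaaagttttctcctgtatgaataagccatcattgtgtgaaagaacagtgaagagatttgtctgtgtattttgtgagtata
Mmp12, second start, chr9:7347124-7347423, plus strand: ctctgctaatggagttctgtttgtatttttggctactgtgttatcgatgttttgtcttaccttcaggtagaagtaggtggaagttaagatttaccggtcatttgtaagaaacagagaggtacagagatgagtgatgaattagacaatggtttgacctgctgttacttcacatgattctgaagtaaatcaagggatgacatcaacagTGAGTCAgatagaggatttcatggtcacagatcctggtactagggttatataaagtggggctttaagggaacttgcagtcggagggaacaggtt
Mmp8, chr9:7558179-7558478, plus strand: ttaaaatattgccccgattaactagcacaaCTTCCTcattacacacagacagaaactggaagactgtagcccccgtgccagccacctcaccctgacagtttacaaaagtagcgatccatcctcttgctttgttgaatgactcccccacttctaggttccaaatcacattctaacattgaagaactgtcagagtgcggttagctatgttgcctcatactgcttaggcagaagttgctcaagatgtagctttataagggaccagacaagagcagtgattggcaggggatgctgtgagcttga
Timp1, chrX:20869916-20870215, plus strand: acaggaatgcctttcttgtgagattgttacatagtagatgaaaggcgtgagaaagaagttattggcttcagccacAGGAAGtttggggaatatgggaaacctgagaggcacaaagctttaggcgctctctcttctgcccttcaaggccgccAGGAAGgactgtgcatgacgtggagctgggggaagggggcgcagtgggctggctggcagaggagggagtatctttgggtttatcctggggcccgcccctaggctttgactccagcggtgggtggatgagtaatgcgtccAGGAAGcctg
Capicua octamers, searched as TGAATGAA, TGAATGGA, TCAATGAA and TCAATGGA on both strands, occurred in 0 of the 9 start regions of the 8 genes, against 3.84% of all 32851 RefSeq start regions of this length. The AP-1 motif TGANTCA, which reads alike on both strands, was in the second start of Mmp12, 44 bases before the start, and in that of Mmp3, 46 bases before, against 7.81% of all start regions. The PEA3-type ETS motif AGGAAG was in 6 of the 9 start regions, against 35.4% of all start regions. These were the regions of Mmp3, Mmp8, Mmp12 (first start only), Mmp14, Timp1 (3 times) and Timp3. The ETS core CCGGAA was in 0 of the 9 start regions and in 14.9% of all start regions. A match is a run of letters and not a measured binding site, and an absent match speaks only of these 300 bases.

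Per exon length, the inhibitors Timp2 and Timp3 and the proteases Mmp2, Mmp14 and Mmp11 were far above the leukocyte proteases in lung. In WT lung the mean level, in RPKM (reads scaled to sequencing depth and to exon length), was 153 for Timp2, 139 for Mmp2, the type IV collagenase known as gelatinase A, 75.8 for Mmp14, a membrane-anchored collagenase that activates pro-MMP2, 36.5 for Timp3, an inhibitor held in the matrix, and 32.0 for Mmp11, stromelysin-3. The means of Timp2 (SD 9.9) and Mmp2 (SD 6.7), and those of Timp3 (SD 6.8) and Mmp11 (SD 2.7), differed by less than the sum of their SDs. Far lower came Timp1 at 6.81 RPKM, Mmp9 (gelatinase B) at 1.83, Mmp8 (neutrophil collagenase) at 1.25, Mmp12 (macrophage elastase) at 0.298 and Mmp3 (stromelysin-1) at 0.209. Between Mmp9 and Mmp8, and between Mmp12 and Mmp3, the difference was again within the SDs.

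The same genes were ordered otherwise in the brain. In WT cortex Timp2 stood at 86.3 RPKM, Timp3 at 8.30, Mmp14 at 2.27 and every other gene of the set under 1 RPKM. In WT cerebellum Timp2 had 20.6, Timp3 10.003 and Mmp14 4.82 RPKM, with the others again under 1. Mmp3 and Mmp12 were near the limit of detection in both brain regions, with at most 6 and 5 reads in a sample, and Mmp8 had at most 4 reads in a cortex sample. CPM were normalised within each tissue, so that levels set across tissues are approximate.

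**Figure D1:**
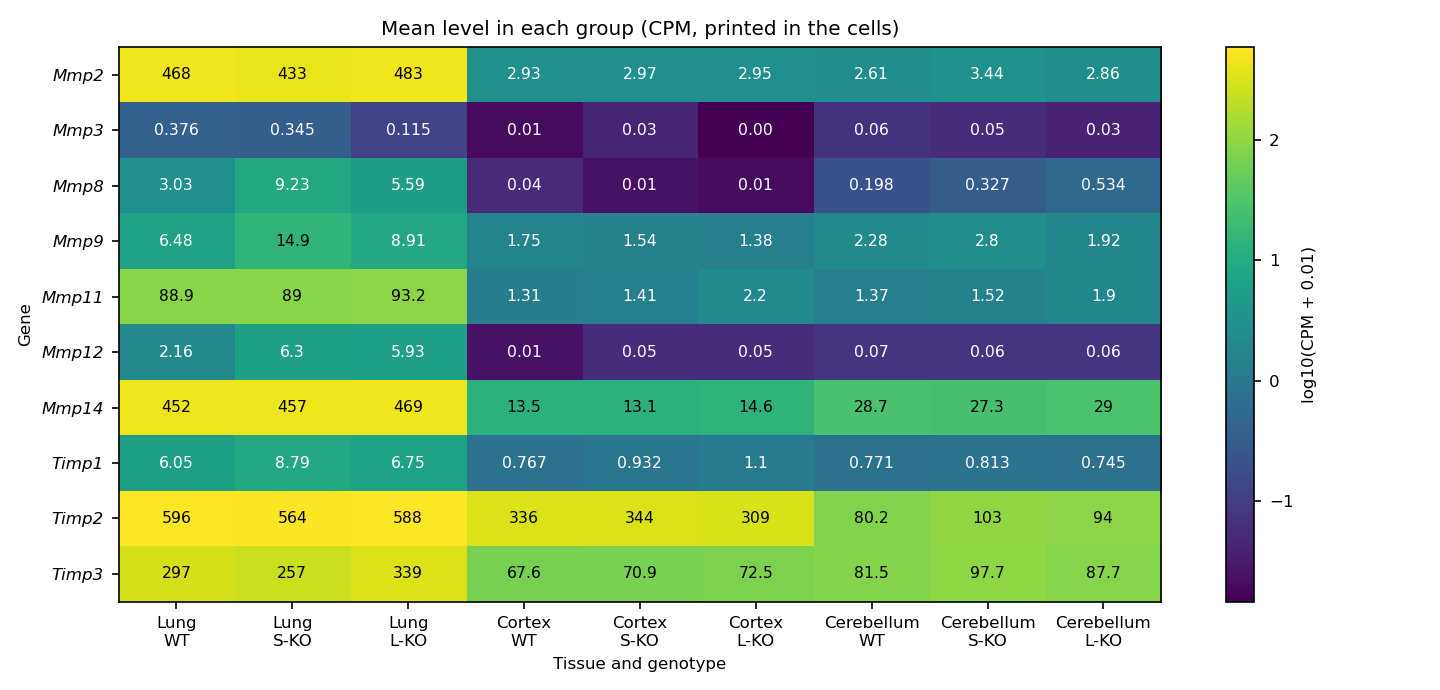
Mean CPM of the 10 genes (rows) in the 9 tissue and genotype groups (columns), with the colour giving log10(CPM + 0.01) and the mean printed in each cell. Timp2, Mmp2 and Mmp14 are brightest in lung, and Mmp3, Mmp8 and Mmp12 are darkest in cortex.

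In lung, loss of the short isoform went with more RNA of 4 of the 9 genes that could be tested: Mmp8, Mmp12, Mmp9 and the inhibitor Timp1 were higher in Cic-S-KO than in WT, and none was lower, although Mmp2 passed as lower in 1 of the alternative fits. Over all 16695 genes tested in this comparison, 15.7% passed the threshold (Benjamini-Hochberg adjusted p under 0.05, edgeR quasi-likelihood test) and 9.99% passed as higher. The median log2 fold change was 0.02 over the 9 members and -0.00 over all genes. Mmp3 had too few reads to be tested. In bulk tissue, more cells of a type and more RNA per cell cannot be told apart.

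Mmp8, which neutrophils store in granules to cut fibrillar collagen, ranged from 1.11 to 5.94 CPM in WT (median 2.34), from 4.19 to 13.3 in Cic-S-KO (median 9.42) and from 3.56 to 9.002 in Cic-L-KO (median 5.38). All 8 Cic-S-KO samples lay above the WT median and 6 lay above every WT sample, so the groups overlapped only at their edges. Against WT the log2 fold change was 1.60 (SE 0.30, adjusted p = 0.0011), larger than that of 99.4% of the genes tested. In Cic-L-KO all 8 samples were likewise above the WT median, but the log2 fold change of 0.88 (SE 0.30) did not pass (adjusted p = 0.096). It did pass without WT replicate 2 or without WT replicate 7, the WT samples with the highest Mmp8, and the adjusted p ranged from 0.037 to 0.18 when each lung sample was left out in turn. The direct difference between the knockouts was 0.72 (SE 0.29, adjusted p = 0.11), and 0.72 with an adjusted p of 0.045 when only these 2 genotypes entered the fit.

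Mmp9, a gelatinase that neutrophils also carry, ranged from 2.88 to 11.2 CPM in WT (median 6.10), from 5.76 to 22.2 in Cic-S-KO (median 14.5) and from 3.12 to 12.9 in Cic-L-KO (median 8.93). In Cic-S-KO, 6 of 8 samples exceeded all WT samples, while 2 of 8 Cic-L-KO samples did. In log2, the fold change was 1.20 (SE 0.30, adjusted p = 0.0089) in Cic-S-KO and 0.46 (SE 0.30, adjusted p = 0.41) in Cic-L-KO. Between the knockouts it was 0.74 (SE 0.30, adjusted p = 0.11), and among the fits run it passed only without replicate 2 of Cic-S-KO (0.86, adjusted p = 0.047).

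Mmp12, the macrophage enzyme that degrades elastin, was the one member higher in both knockouts. It ranged from 0.823 to 3.74 CPM in WT (median 1.99), from 2.44 to 14.9 in Cic-S-KO (median 4.63) and from 3.89 to 7.86 in Cic-L-KO (median 6.56). All 8 Cic-L-KO samples exceeded every WT sample, whereas 4 of the 8 Cic-S-KO samples did and the others fell inside the WT range. The log2 fold change was 1.55 (SE 0.36, adjusted p = 0.0051) in Cic-S-KO and 1.47 (SE 0.36, adjusted p = 0.019) in Cic-L-KO, and between the knockouts it was 0.08 (95% interval -0.58 to 0.74, adjusted p = 0.92). In Cic-L-KO against WT, Mmp12 was the 1 member past the threshold of the 9 tested, where 4.89% of all genes passed and 2.62% passed as higher. Mmp1b, the gene it overlaps, had 0 to 0.0415 CPM in lung.

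Timp1, a secreted inhibitor that is induced in injured and inflamed tissue, ranged from 4.65 to 7.48 CPM in WT (median 6.03), from 6.89 to 11.7 in Cic-S-KO (median 8.40) and from 3.41 to 9.96 in Cic-L-KO (median 7.06). In Cic-S-KO 6 of 8 samples lay above every WT sample. Its log2 fold change was 0.54 (SE 0.15, adjusted p = 0.013) in Cic-S-KO and 0.16 (SE 0.15, adjusted p = 0.59) in Cic-L-KO. In Cic-S-KO this inhibitor had a log2 fold change below those of the 3 proteases, a difference that was not tested. Between the knockouts it was 0.38 (SE 0.15, adjusted p = 0.091), and among the fits run it passed only without replicate 5 of Cic-L-KO (0.48, adjusted p = 0.023). Syn1, which spans Timp1 on the opposite strand, was also higher in Cic-S-KO than in WT (1.28, SE 0.41, adjusted p = 0.033). Syn1 had 0.894 ± 0.995 CPM in Cic-S-KO and 0.383 ± 0.087 in WT (SD, n = 8 each). In Cic-S-KO its median was 0.555 and its highest sample 3.24 CPM, so the mean rests largely on few reads in a high sample.

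**Figure D2:**
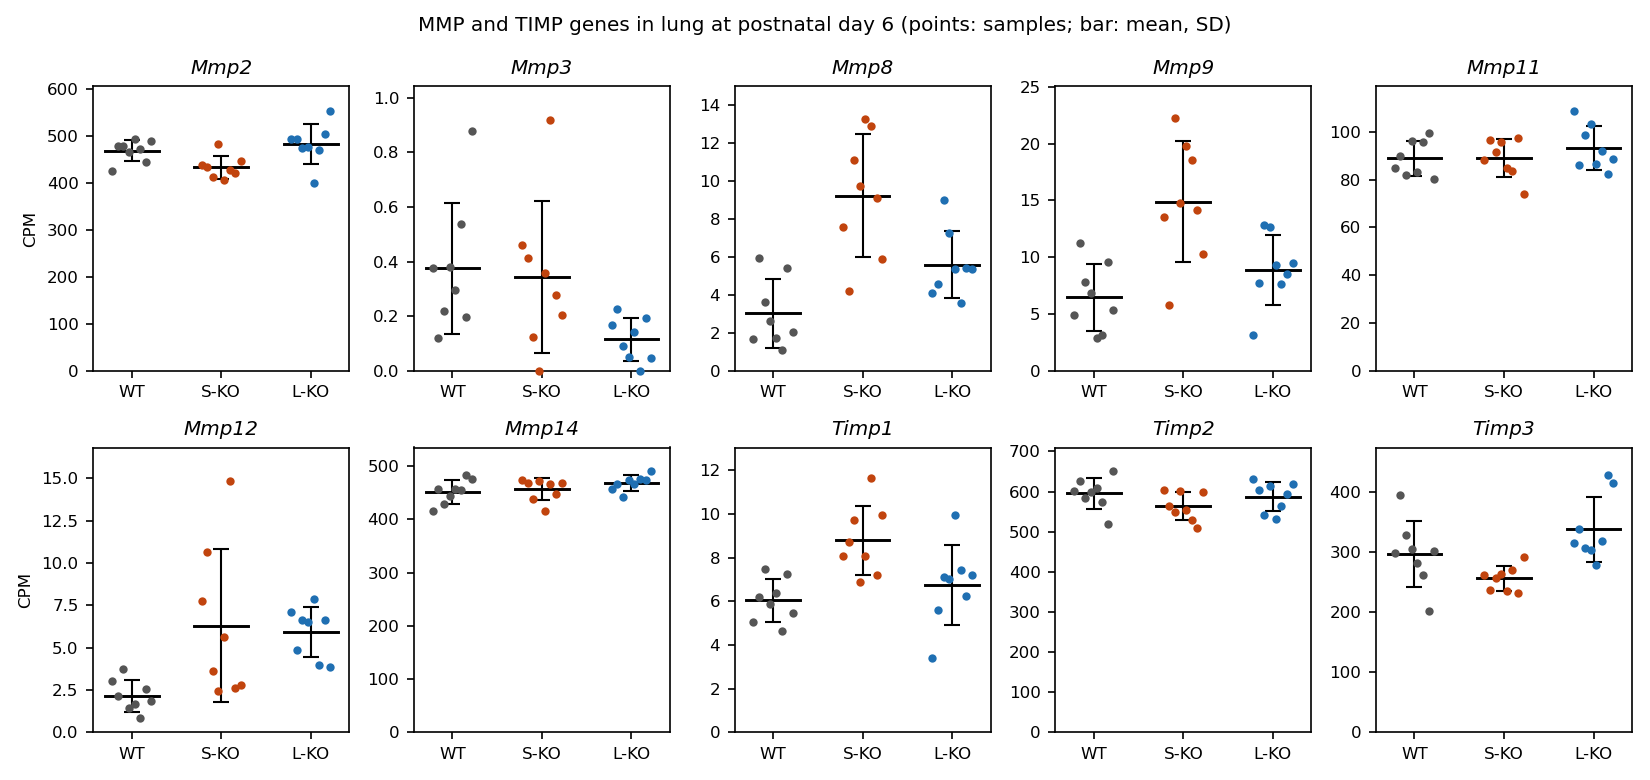
CPM of each gene (y axes start at 0) in the 24 lung samples by genotype, where points are samples and bars give the mean and SD. Mmp8, Mmp9 and Timp1 are shifted upward in Cic-S-KO with overlap, Mmp12 is shifted upward in both knockouts, Mmp11 and Mmp14 sit at similar heights in the 3 genotypes, and Mmp2 is slightly lower in Cic-S-KO than Cic-L-KO.

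The abundant genes of the lung matrix moved little. Mmp14 had 452 ± 22 CPM in WT, 457 ± 20 for Cic-S-KO and 469 ± 14 for Cic-L-KO (SD, n = 8 each), with log2 differences from WT of 0.02 (95% interval -0.06 to 0.09) and 0.05 (-0.02 to 0.12). Mmp11 had 88.9 ± 7.4, 89.0 ± 8.0 and 93.2 ± 9.4 CPM, and its interval in Cic-S-KO ran from -0.12 to 0.12. Timp2, the inhibitor that also takes part in MMP2 activation by MMP14, had 596 ± 39, 564 ± 35 and 588 ± 37 CPM, and its log2 difference in Cic-S-KO was -0.08 (-0.17 to 0.01). These intervals lie below the log2 fold changes of Mmp8, Mmp9 and Mmp12.

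Mmp2 and Timp3 differed between the knockouts. They were the 2 members past the threshold in Cic-S-KO against Cic-L-KO, both lower in Cic-S-KO, of 9 tested; 12.2% of all genes passed in this comparison and 4.85% passed as lower. Timp3, which binds the matrix and inhibits ADAM proteases as well as MMPs, spanned 233 to 292 CPM in Cic-S-KO (median 260) and from 280 to 428 in Cic-L-KO (median 317), with WT spread across both at 202 to 396 (median 301). In 7 of 8 Cic-S-KO samples it was below every Cic-L-KO sample, with a log2 fold change of -0.40 (SE 0.10, adjusted p = 0.0096). Against WT, Timp3 did not pass in Cic-L-KO (0.19, SE 0.10, adjusted p = 0.30) or in Cic-S-KO (-0.21, SE 0.10, adjusted p = 0.15), where of the fits run it passed only without WT replicate 7 (-0.28, adjusted p = 0.024). Mmp2 differed between the knockouts by a small amount, being lower in Cic-S-KO, 433 ± 24 against 483 ± 43 CPM (SD, n = 8 each), with a log2 fold change of -0.16 (SE 0.05, adjusted p = 0.035). This call was lost in 8 of the 24 fits that left out 1 lung sample (replicates 3, 5, 6 and 7 of Cic-S-KO and 1, 2, 7 and 8 of Cic-L-KO, highest adjusted p = 0.085) and when only the 2 genotypes entered the fit (adjusted p = 0.057). Against WT (468 ± 23 CPM, SD, n = 8), the Mmp2 log2 fold change in Cic-S-KO was -0.11 (SE 0.05, adjusted p = 0.12), and among the fits run it passed only with a correction for GC content (-0.16, adjusted p = 0.032).

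Mmp3 was close to the detection limit. It had 3 to 20 reads per sample in WT lung, 0 to 19 in Cic-S-KO and 0 to 5 in Cic-L-KO, with means of 0.376, 0.345 and 0.115 CPM. In Cic-L-KO 4 of 8 samples were below every WT sample, but no test was run at these counts.

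**Figure D3:**
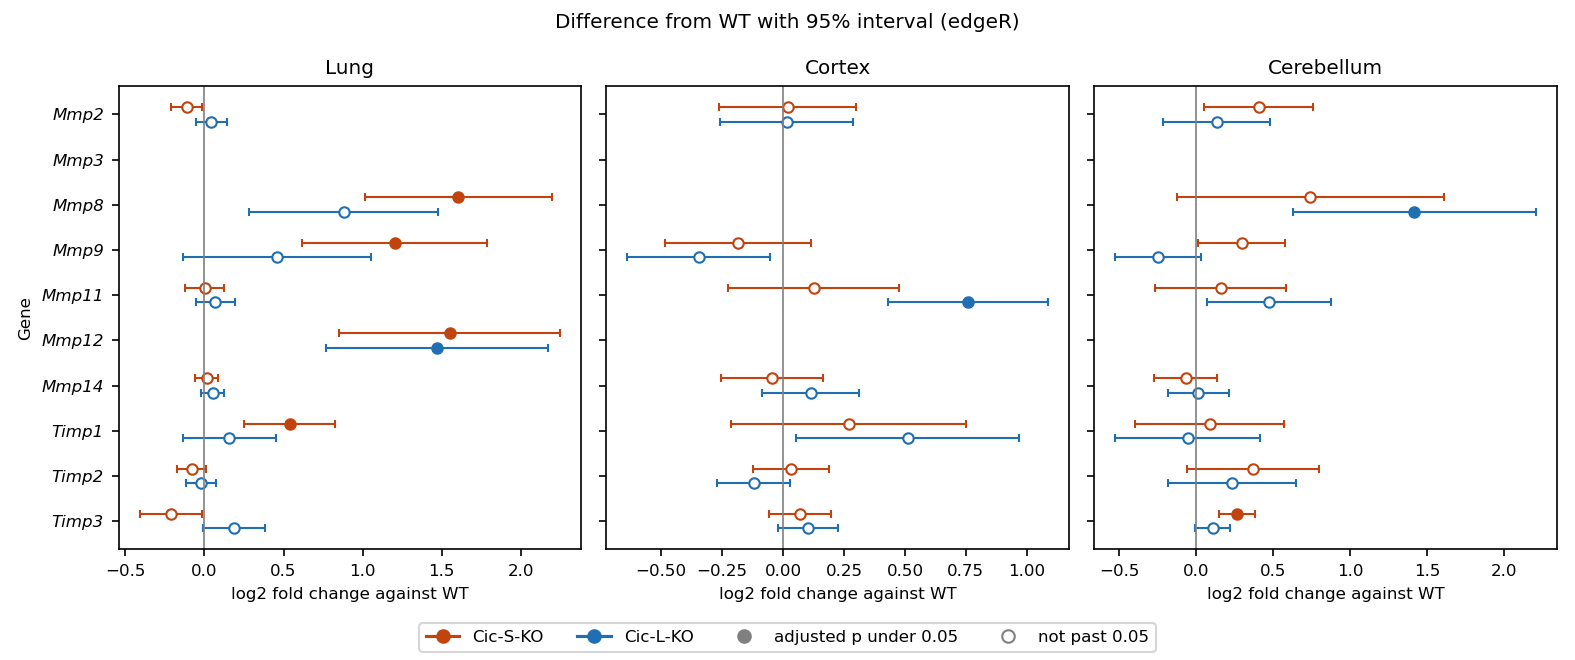
Log2 fold change against WT with its 95% interval (x axis) for each gene (rows) in lung, cortex and cerebellum, where filled points have an adjusted p under 0.05 and genes without a point were not tested. Lung holds the filled points of Mmp8, Mmp9, Mmp12 and Timp1, cortex that of Mmp11, and cerebellum those of Mmp8 and Timp3. The x axes differ between panels.

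Markers of neutrophils and macrophages were higher in Cic-S-KO lung, where Mmp8, Mmp9, Mmp12 and Timp1 were higher too. Of the 7 tested neutrophil markers 7 were higher in Cic-S-KO (median log2 fold change 1.49), and their summed level was 40.9 to 180.2 CPM in WT, 95.5 to 347.6 in Cic-S-KO and 41.7 to 194.8 in Cic-L-KO. The markers of immature neutrophils, Elane and Mpo, had group means of at most 0.137 CPM. Of the 8 tested macrophage markers 7 were higher in Cic-S-KO and 3 among Cic-L-KO samples, with sums of 200.3 to 274.5 CPM in WT, 318 to 553.4 in Cic-S-KO and 259.5 to 325.6 in Cic-L-KO, so that the WT and Cic-S-KO ranges did not overlap. By contrast, of the 7 fibroblast markers 1 was lower and none higher in Cic-S-KO. Lymphoid markers had a median sum of 12.0 CPM in WT and 13.2 in Cic-S-KO. Airway epithelium markers, which are not of leukocytes, had 3835 CPM in WT and 4540 in Cic-S-KO.

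Within each genotype, Mmp8 and Mmp9 followed the neutrophil markers. This relation was chosen after the values were seen, and 24 relations were computed (4 genes, 2 marker sums, 3 genotypes, 8 samples each, two-sided exact permutation tests). For Mmp8 and the neutrophil sum, Pearson's r was 0.97 in WT (exact p = 7.44e-05, adjusted p = 0.0012; Spearman's rho 0.98, exact p = 0.00040), 0.98 in Cic-S-KO (exact p = 0.00015, adjusted p = 0.0012; rho 0.93, exact p = 0.0022) and 0.74 among Cic-L-KO samples (exact p = 0.037, adjusted p = 0.11; rho 0.86, exact p = 0.011). For Mmp9, r was 0.91 in WT (exact p = 0.0021, adjusted p = 0.010; rho 0.90, exact p = 0.0046), 0.93 in Cic-S-KO (exact p = 0.00082, adjusted p = 0.0049; rho 0.81, exact p = 0.022) and 0.98 among Cic-L-KO samples (exact p = 0.00015, adjusted p = 0.0012; rho 0.95, exact p = 0.0011). Without the 2 samples farthest from the median neutrophil sum, r for Mmp8 was 0.97, 0.89 and 0.88 and r for Mmp9 was 0.91, 0.64 and 0.91 in WT, Cic-S-KO and Cic-L-KO. After adjustment of Pearson's p, 5 of the 24 relations passed (those of Mmp8 and Mmp9 with the neutrophil sum, except Mmp8 in Cic-L-KO), and the other 19 did not, including those of Mmp12 with the macrophage sum (r = 0.63 for WT, 0.43 for Cic-S-KO and 0.07 among Cic-L-KO samples; adjusted exact p = 0.22, 0.49 and 0.90).

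Set as a percentage of the marker sum of the same sample, the members gave another order. These ratios were not among the tests planned beforehand. Mmp9 was a median 7.71% of the neutrophil sum in WT, 5.86% in Cic-S-KO and 7.31% among Cic-L-KO samples, and none of its 3 genotype differences passed (exact permutation tests of log2 ratios, two-sided, adjusted over 9 tests, adjusted p from 0.14 to 0.64). Mmp8 was 3.26% of it in WT, 3.86% in Cic-S-KO and 4.38% among Cic-L-KO samples; the difference from WT was 0.23 in log2 in Cic-S-KO (exact p = 0.033, adjusted p = 0.099) and 0.49 among Cic-L-KO samples (exact p = 0.0059, adjusted p = 0.027). Cic-L-KO replicate 1, whose neutrophil sum of 41.7 CPM was the lowest of its group, held 4.12 CPM of Mmp8, and without it the Mmp8 difference from WT was 0.33 (exact p = 0.012, not adjusted; this leave-out was chosen after seeing the data). Mmp12 was 0.936% of the macrophage sum in WT, 1.21% in Cic-S-KO and 2.15% among Cic-L-KO samples, a log2 difference from WT of 0.60 in Cic-S-KO (exact p = 0.14, adjusted p = 0.18) and 1.17 among Cic-L-KO samples (exact p = 0.00062, adjusted p = 0.0056). Between the knockouts, the Mmp12 ratio differed by -0.58 in log2 (Cic-S-KO minus Cic-L-KO, exact p = 0.13, adjusted p = 0.18). The ratio of Mmp12 to the macrophage markers used here was higher in Cic-L-KO than in WT. No relation of Mmp12 with that sum passed within a genotype, so the ratio is not a result separate from its fold change. For Mmp9 in Cic-S-KO no increase relative to the neutrophil markers was measured. Whether cell number or RNA per cell lies behind these ratios was not tested.

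**Figure D4:**
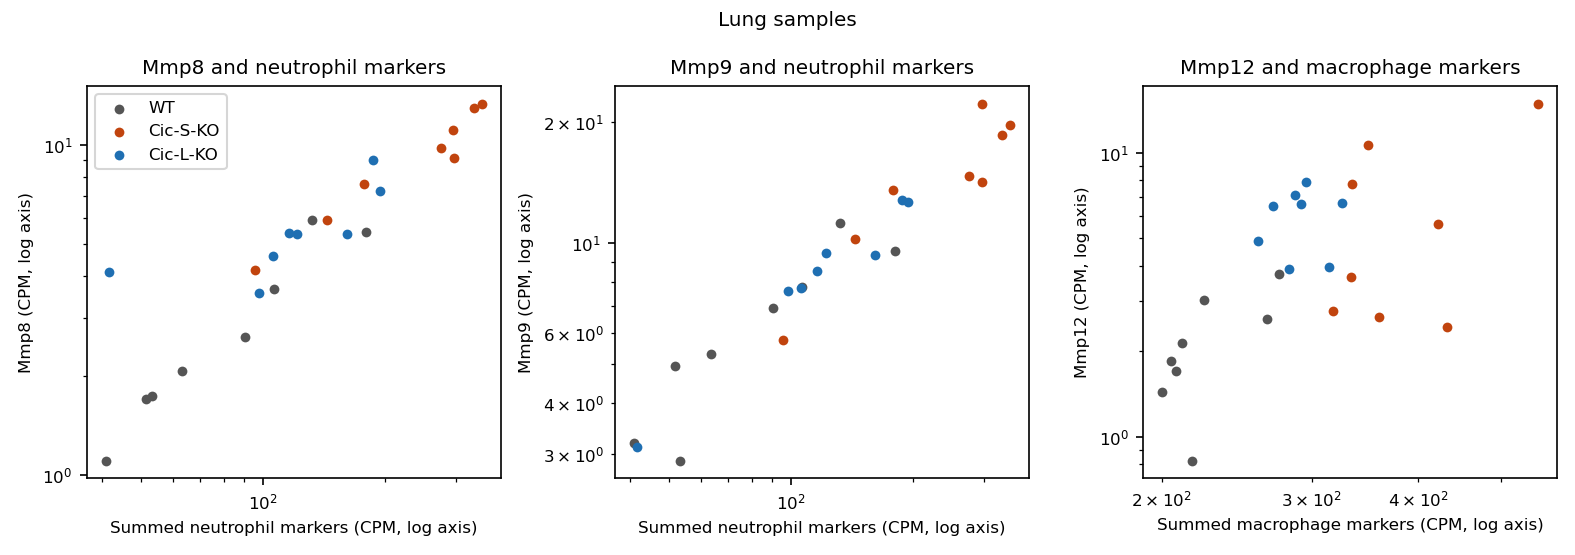
Each lung sample by the summed CPM of neutrophil or macrophage markers (x, log axis) and the CPM of Mmp8, Mmp9 or Mmp12 (y, log axis), coloured by genotype. The points of Mmp9 lie along a line shared by the genotypes. Those of Mmp8 also rise with the neutrophil sum, at a median 4.38% of it in Cic-L-KO against 3.26% in WT. For Mmp8, 1 Cic-L-KO sample at a neutrophil sum of 41.7 CPM lies above the others. Cic-L-KO samples lie above WT samples in Mmp12 at macrophage sums of 259.5 to 325.6 CPM.

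The genes most like each member over the 24 lung samples, by Pearson's r of log2 CPM centred within genotype, are named here. These values are a description over samples that share their libraries. Mmp9 was most like Stfa1, S100a9 and Retnlg (r = 0.97, 0.96 and 0.96), and Mmp8 was most like S100a9, S100a8 and Ngp (r = 0.90, 0.89 and 0.89), all of them known from neutrophils. Mmp12 was most like Retnla (r = 0.82), which marks alternatively activated macrophages, followed by Me1 and Pla2g4f (r = 0.76 and 0.75). Mmp2 was most like Bgn, a matrix proteoglycan, Adgra2 and Itga5 (r = 0.89, 0.88 and 0.84), and Timp2 was most like Prkacb, Rassf8 and Ltbp2 (r = 0.88, 0.88 and 0.87). For Timp3 the first was Cdc42bpb (r = 0.93), for Mmp11 Auh (r = 0.91), for Timp1 Slc9a3r1 (r = 0.80) and for Mmp14 Igsf3 (r = 0.69). Between members, r was 0.87 for Mmp8 with Mmp9 and 0.09 for Mmp12 with Mmp9.

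Other genes of the protease system changed in Cic-S-KO lung in both directions, to be read against 9.99% of all genes higher and 5.73% lower in this comparison. Of 10 tested genes among the remaining MMP and TIMP family, 2 were higher and none lower: Timp4, the fourth inhibitor, by 0.69 in log2 (SE 0.18, adjusted p = 0.0092), and Mmp25, a leukocyte membrane protease, by 0.72 (SE 0.23, adjusted p = 0.031). Of 8 tested genes of proenzyme activation, Plau, which makes plasmin from plasminogen, was higher (0.35, SE 0.11, adjusted p = 0.027) and the proprotein convertase Pcsk6 was lower (-0.34, SE 0.10, adjusted p = 0.022). Of 16 tested ADAM and ADAMTS proteases, 1 was higher, the leukocyte gene Adam8 (0.81, SE 0.17, adjusted p = 0.0020), and 4 were lower, among them Adam12 (-0.55, SE 0.11, adjusted p = 0.0012) and Adamts9 (-0.28, SE 0.07, adjusted p = 0.011).

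The largest share was in other matrix proteases and their inhibitors, where 6 of 8 tested genes were higher in Cic-S-KO and none lower, with a median log2 fold change of 1.15 against -0.00 over all genes. The 3 with the smallest adjusted p were Ctsk, the collagenolytic cathepsin K, at 1.32 (SE 0.19, adjusted p = 0.00011), Slpi, an inhibitor of neutrophil elastase, at 1.25 (SE 0.22, adjusted p = 0.00066), and Prtn3, neutrophil proteinase 3, at 1.49 (SE 0.30, adjusted p = 0.0015). This list holds genes of leukocytes, and Elane is also among the neutrophil markers. The part of leukocytes in the values of this list was not tested.

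In Cic-L-KO lung 4 genes of these lists passed, where 4.89% of all genes did against 15.7% in Cic-S-KO. Mmp13, a collagenase, was the 1 of 10 in the MMP and TIMP family that was higher (1.21, SE 0.32, adjusted p = 0.026), with a mean of 1.51 CPM against 0.650 in WT. By position Mmp13 is the first Mmp gene of the chromosome 9 cluster, and Mmp12 is the next. Among the 16 ADAM and ADAMTS proteases Adamts9 was higher (0.31, SE 0.07, adjusted p = 0.016) and Adamts5, an aggrecanase, and Adam10 were lower (-0.42, SE 0.10, adjusted p = 0.013; and -0.16, SE 0.04, adjusted p = 0.036). Adamts9 thus lay on opposite sides of WT in the knockouts. In the other 2 lists 0 of 8 genes each passed in edgeR, with 3 of 8 activation genes and 2 of 8 other matrix proteases at an unadjusted p under 0.05. Adam10, which sheds membrane proteins, was the gene of these lists that passed in all 3 tissues of a knockout, at -0.16 in lung, -0.20 in cortex (SE 0.04, adjusted p = 0.00012) and -0.20 in cerebellum (SE 0.04, adjusted p = 0.0016) in Cic-L-KO.

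In cortex, Mmp11 was higher without the long isoform. Its level ranged from 0.776 to 1.81 CPM in WT (median 1.30), from 0.978 to 1.93 in Cic-S-KO (median 1.33) and from 1.56 to 2.89 in Cic-L-KO (median 2.27), at 21 to 81 reads per sample. In Cic-L-KO 6 of 8 samples exceeded every WT sample. The log2 fold change was 0.76 (SE 0.17, adjusted p = 0.0005) in Cic-L-KO against WT, and Cic-S-KO was below Cic-L-KO by -0.63 (SE 0.17, adjusted p = 0.0045). Mmp11 was 1 of 7 tested members past the threshold in both comparisons, where 43.2% and 33.9% of all genes passed (21.4% as higher and 21.9% as lower against WT, 17.4% as higher and 16.5% as lower between the knockouts), a larger share than among the members. Chchd10, which overlaps Mmp11, had a log2 fold change of 0.08 (SE 0.07, adjusted p = 0.34) in the same comparison with WT.

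No member passed in Cic-S-KO cortex against WT, of 7 tested in edgeR, with 0 at an unadjusted p under 0.05 and 0 in DESeq2 and limma, where 2.83% of all genes passed as higher and 3.7% as lower (6.53% in all). In Cic-L-KO cortex Timp1 and Mmp9 lay close to the threshold, in opposite directions: Timp1 had 1.10 ± 0.26 CPM against 0.767 ± 0.28 in WT (SD, n = 8 each; log2 fold change 0.51, SE 0.23, adjusted p = 0.076) and Mmp9 1.38 ± 0.19 against 1.75 ± 0.38 (-0.34, SE 0.15, adjusted p = 0.061). The adjusted p of Timp1 fell to 0.033 at lowest when 1 cortex sample was left out (it passed without WT replicate 4, WT replicate 5 or Cic-L-KO replicate 8), and that of Mmp9 to 0.029 (it passed without WT replicate 4 or WT replicate 8). Timp2 and Timp3, the abundant inhibitors of the cortex, had 309 ± 25 and 72.5 ± 7.9 CPM in Cic-L-KO against 336 ± 34 and 67.6 ± 5.9 in WT and did not pass. Neuron markers were lower in Cic-L-KO cortex (4 of 5 past the threshold; sums of 4200 to 4876 CPM against 5565 to 6196 in WT), and 2 of 4 endothelial and 4 of 7 macrophage markers were higher. Cartilage markers had sums of 36.2 to 44.7 CPM in Cic-L-KO against 20.6 to 28.0 in WT, without overlap (2 of 4 tested higher), and choroid plexus markers a median sum of 386 against 24.2 CPM (0 of 3 passed). The part of these markers in the Mmp11 result was not tested.

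Further protease genes rose in Cic-L-KO cortex beside Mmp11. Of 9 tested genes of the remaining MMP and TIMP family 6 were higher and none lower (median log2 fold change 0.37 against 0.01 over all genes), of 16 ADAM and ADAMTS proteases 8 were higher and 2 lower, and of 8 activation genes 4 were higher. Of 7 other matrix proteases and inhibitors 2 were higher and 1 lower. Of all genes tested, 21.4% were higher and 21.9% lower in this comparison.

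In cerebellum, Timp3 was higher without the short isoform. It ranged from 72.3 to 89.2 CPM in WT (median 82.1), from 83.7 to 116 in Cic-S-KO (median 97.4) and from 76.2 to 93.7 in Cic-L-KO (median 90.9). In Cic-S-KO 6 of 7 samples exceeded all WT samples. Its log2 fold change was 0.26 (SE 0.06, adjusted p = 0.0067), the 1 call among 8 tested members where 8.23% of all genes passed (4.34% as higher and 3.89% as lower), and without replicate 6 of Cic-S-KO it was 0.22 (adjusted p = 0.017). In Cic-L-KO it was 0.11 (SE 0.06, adjusted p = 0.20). Syn3, whose exons overlap those of Timp3, had a log2 fold change of 0.01 (SE 0.07, adjusted p = 0.97) in Cic-S-KO cerebellum. In Cic-L-KO, Syn3 was higher in cerebellum (0.39, SE 0.07, adjusted p = 0.0003) and in cortex (1.30, SE 0.06, adjusted p = 4.8e-16). The part of Syn3 reads in the Cic-L-KO values of Timp3 was not tested. Summed fibroblast markers were 130.4 to 160.9 CPM in WT, 137.4 to 209.9 in Cic-S-KO and 164.2 to 200.5 in Cic-L-KO, with 2 of 6 tested markers higher in Cic-S-KO. Smooth muscle markers had a median sum of 12.5 CPM in Cic-S-KO against 8.06 in WT (2 of 3 tested higher), endothelial markers 62.9 against 49.3 (0 of 4 passed) and choroid plexus markers 1158 against 1381 (0 of 3 passed), while 3 of 5 neuron markers were lower. The part of these cell types in the Timp3 result was not tested.

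Mmp8 was higher in Cic-L-KO cerebellum at very low counts. It had 0 to 10 reads per WT sample, 2 to 21 in Cic-S-KO and 6 to 25 in Cic-L-KO, or medians of 0.245, 0.328 and 0.488 CPM. In Cic-L-KO 6 of 8 samples were above every WT sample and the other 2, with 6 reads each, lay at about the WT median. The log2 fold change was 1.42 (SE 0.40, adjusted p = 0.012), the 1 call among 8 tested members where 21.5% of all genes passed (10.9% as higher and 10.6% as lower), and in Cic-S-KO it was 0.74 (SE 0.44, adjusted p = 0.32). The gene sat at the edge of the low-count filter and passed it through Cic-L-KO, the group where it is high. The call is therefore not independent of that filter. Mmp8 left the test when Cic-L-KO replicate 1, 3, 4, 6 or 7 was left out, and DESeq2 gave it no adjusted p. Of the 5 tested neutrophil markers 1 was higher in Cic-L-KO cerebellum, with sums of 2.23 to 5.39 CPM in WT and 3.28 to 10.7 in Cic-L-KO.

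Another gene of the same chromosome 9 cluster, Mmp20, known for its role in tooth enamel, was also higher there. It was singled out after its values were seen, so its adjusted p is a description only. Whether its change has to do with that of Mmp8 was not tested. It starts 59.7 kb after the end of Mmp8, had a mean of 0.886 CPM in Cic-L-KO cerebellum against 0.286 in WT, and a log2 fold change of 1.61 (SE 0.31, adjusted p = 0.00052). The other cluster genes had too few reads there to be tested.

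Mmp9 separated the knockouts in cerebellum. It spanned 2.12 to 3.96 CPM in Cic-S-KO (median 2.50), from 1.60 to 2.19 in Cic-L-KO (median 1.92) and from 1.82 to 3.35 in WT (median 2.12), on 42 to 89 reads. Cic-S-KO exceeded Cic-L-KO by 0.54 in log2 (SE 0.15, adjusted p = 0.013), the 1 call of 8 tested members where 12.4% of all genes passed (6.06% as higher in Cic-S-KO and 6.38% as lower). Neither knockout passed against WT, at 0.30 (SE 0.14, adjusted p = 0.21) and -0.25 (SE 0.14, adjusted p = 0.23), which lie on opposite sides of WT. Mmp2 and Timp2 had a single high sample in Cic-S-KO cerebellum, replicate 6, at 6.22 CPM where the other 6 had 2.33 to 3.40, and at 173.5 CPM where the others had 83.4 to 110.2. Their log2 fold changes of 0.40 and 0.37 (adjusted p = 0.16 and 0.32) became 0.19 and 0.20 without it (adjusted p = 0.56 and 0.67). Replicate 6 is the sample with the highest choroid plexus and oligodendrocyte sums named above.

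**Figure D5:**
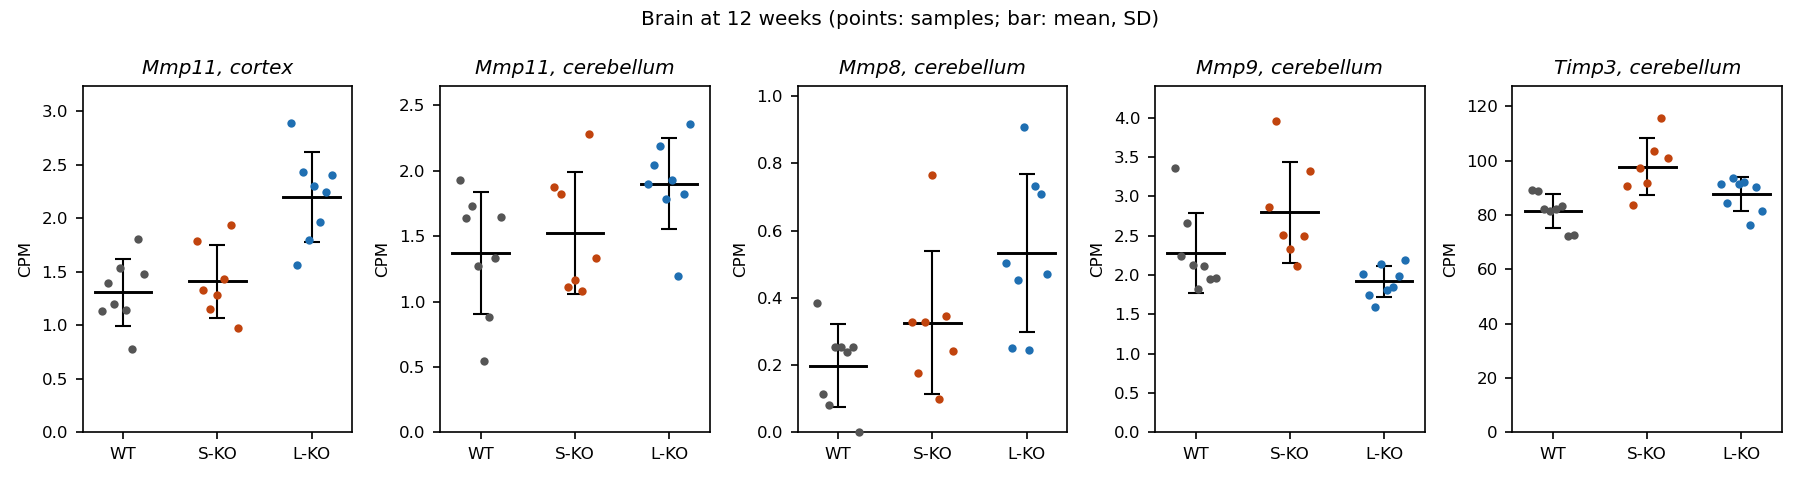
CPM (y axes start at 0) of Mmp11 in cortex and of Mmp11, Mmp8, Mmp9 and Timp3 in cerebellum by genotype, where points are samples and bars give the mean and SD. By group mean, Cic-L-KO is highest for Mmp11 in cortex and lowest for Mmp9 in cerebellum, and Cic-S-KO is highest for Timp3, with overlap between groups.

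Between the WT brain regions 4 of 8 tested members differed, where 73.5% of all genes did (35.4% higher in cortex and 38.2% lower). Timp2 was higher in cortex by 2.15 in log2 (SE 0.16, adjusted p = 1.7e-15), at 336 ± 34 against 80.2 ± 23 CPM (SD, n = 8 each). Mmp14 was lower in cortex by -0.999 (SE 0.11, adjusted p = 1.2e-11), at 13.5 ± 2.3 against 28.7 ± 5.7 CPM, Timp3 by -0.19 (SE 0.06, adjusted p = 0.0061) and Mmp8 by -1.93 (SE 0.58, adjusted p = 0.0027), the last on 0 to 4 reads in cortex. Whether same-numbered samples of the 2 regions came from 1 animal is not stated in the labels. With same-numbered samples of a genotype as a block, an alternative added after seeing the data, these 4 genes again passed.

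Whether a knockout effect differed between tissues was tested by interaction terms. The Cic-S-KO effect on Mmp9 was larger in lung than in cortex by 1.38 in log2 (SE 0.36, adjusted p = 0.015; 1 of 9 members, where 7.32% of all genes passed, 4.57% as larger in lung and 2.76% as smaller), but limma with sample weights gave 1.45 with an adjusted p of 0.062. The Cic-L-KO effect on Mmp11 was smaller in lung than in cortex by -0.72 (SE 0.15, adjusted p = 0.0006; 1 of 9, where 19.3% passed, 8.33% as larger in lung and 11% as smaller). Against cerebellum, the Cic-S-KO effect in lung was lower for Timp3 by -0.49 (SE 0.13, adjusted p = 0.0098) and for Mmp2 by -0.55 (SE 0.17, adjusted p = 0.039; 2 of 9, where 7.1% passed, 3.22% as larger in lung and 3.87% as smaller). Without replicate 6 of Cic-S-KO cerebellum, left out after seeing the data, Timp3 kept its call (-0.45, adjusted p = 0.023) and Mmp2 lost it (-0.31, adjusted p = 0.19). The effects compared here do not share control samples, but lung and brain differ in age and batch as well as tissue.

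Within the brain, the Cic-L-KO effect on Mmp8 was lower in cortex than in cerebellum by -3.24 in log2 (SE 1.05, adjusted p = 0.019; 1 of 8, where 23% passed, 11.5% in each direction), but cortex held at most 4 reads per sample, so that this size rests on counts near 0. At such counts in cortex, the gene passed the low-count filter through its cerebellum samples. The Cic-S-KO effect passed for 0 of 8 members between cortex and cerebellum in edgeR, DESeq2 and limma, with 2 at an unadjusted p under 0.05 and 4.5% of all genes called (2.01% as larger in cortex and 2.5% as smaller). The Cic-L-KO effect passed for 0 of 9 between lung and cerebellum in the same tools, with 1 at an unadjusted p under 0.05 and 4.96% of all genes called (1.63% as larger in lung and 3.33% as smaller). For Mmp8, Mmp12 and Timp1, higher in Cic-S-KO lung, the interaction with cortex did not pass (2.87, SE 1.21, adjusted p = 0.14; 0.11, SE 1.26, adjusted p = 0.98; and 0.26, SE 0.28, adjusted p = 0.63). In DESeq2 the Mmp8 term did pass, at 3.06 (adjusted p = 0.023). Mmp8 and Mmp12 had at most 5 reads in a cortex sample.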

How the data were processed

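Poly(A) RNA-seq libraries of 70 samples were made from flash-frozen tissue by a sequencing provider, per the labels' protocols. The deposited values are raw counts of reads per gene. STAR 2.7 and GRCm38.p6 are named in the submitters' processing notes. The counting program, annotation release and use of strand are not given in the sources used here. Of 50789 versioned identifiers, 50725 were found in GENCODE M21 after the version suffix was dropped, and 64 were not. The members and all gene lists were chosen with earlier results of these data known.

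Samples were grouped by tissue and genotype from the labels. Within each tissue, edgeR 4.0.16 (R 4.3.3) was run on the deposited counts of the 3 genotypes together: its low-count filter, TMM normalisation, robust quasi-likelihood fit and Benjamini-Hochberg adjustment over all genes tested, with a threshold of 0.05. Fits over 2 tissues tested interactions and, between WT samples, cortex against cerebellum. CPM used the TMM library sizes of each tissue, RPKM divided them by exon length, and intervals are 95% normal intervals. The procedure was tested on simulated data. No 2 libraries of a tissue held identical values. Correlations of members with sums of marker genes, and log2 ratios of members to these sums, were tested by exact permutation (scipy 1.17.1 for the ratios). The sums themselves were not tested between groups.

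All 10 members are named. For each, the 3 most alike genes by Pearson's r of log2 CPM (prior count 2) are named, and of each pathway list at most the 3 smallest adjusted p per knockout in lung and genes past the threshold in all 3 tissues. Mmp20 was added after its values were seen. Alternatives were DESeq2 1.42.0, limma 3.58.1 voom with sample weights, other normalisation, other filters, a non-robust fit, a Ddx3y covariate, a replicate block (in the brain also within genotype, added after seeing the data), GC bins, only the 2 genotypes compared, and leaving out each sample. Serpine2, Serpinb2, Adamts4, Marco, Cxcr2 and Col9a1, which are in the lists, were not analysed here.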

Additional observations from a re-analysis of the deposited data

Results flagged for a closer look

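Of 90 groups of samples examined for the 10 genes, 9 had a sample far from the others, and chance gives about 1 in 20 groups, or 4.5. In Cic-S-KO cerebellum replicate 6 stood apart for Mmp2 at 6.22 CPM and for Timp2 at 173.5 CPM, and replicate 4 for Mmp8 at 0.766 CPM. The other 6 rest on at most 5 reads in cortex: Mmp3 in WT replicate 4 (0.0769 CPM), Cic-S-KO replicate 3 (0.239 CPM) and Cic-L-KO replicate 1 (0.0357 CPM), Mmp8 in WT replicate 5 (0.158 CPM), and Mmp12 in WT replicate 1 (0.114 CPM) and Cic-L-KO replicate 4 (0.187 CPM).

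In 5 cases the effect of a knockout differed between tissues by an interaction term. The Cic-L-KO effect on Mmp8 was lower in cortex than in cerebellum by -3.24 in log2, a size that rests on very low cortex counts. The Cic-S-KO effect on Mmp9 was higher in lung than in cortex by 1.38, and the Cic-L-KO effect on Mmp11 was lower in lung than in cortex by -0.72. The Cic-S-KO effect in lung was below that in cerebellum for Mmp2 by -0.55 and for Timp3 by -0.49. In the 4 comparisons of lung with brain, tissue, age and batch cannot be told apart.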

How the results depend on the processing

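The calls of Mmp8, Mmp9, Mmp12 and Timp1 in Cic-S-KO lung, of Mmp12 in Cic-L-KO lung, of Timp3 between the knockouts in lung, and of Timp3 and Mmp9 in cerebellum held under all 10 alternatives and every left-out sample (highest adjusted p = 0.0055, 0.022, 0.021, 0.036, 0.0497, 0.032, 0.041 and 0.048). Both Mmp11 calls in cortex held wherever the gene was tested. No called value changed sign, and 70 values that passed in neither fit did. Counts of members called moved as follows, and the cause was not tested unless stated. A minimum mean of 50 counts left 0 calls in cortex (Cic-L-KO against WT, and between the knockouts), in Cic-L-KO cerebellum and in the Cic-L-KO interaction of cortex with cerebellum, since the called genes fell under it. In Cic-L-KO cerebellum DESeq2 (no adjusted p for Mmp8) and the fit of only 2 genotypes (Mmp8 filtered out) gave 0 calls, and limma gave 2 (Mmp8 and Mmp11). limma also gave 2 in Cic-L-KO lung (Mmp8 and Mmp12), 0 for the Cic-S-KO interaction of lung with cortex and 1 for that with cerebellum. DESeq2 gave 2 calls for both knockouts' interactions of lung with cortex. GC bins gave 2 calls in Cic-L-KO cortex (Mmp9 and Mmp11) and added Mmp2 as lower in Cic-S-KO lung (adjusted p = 0.032), and the non-robust fit added Mmp9 as lower in WT cortex than in WT cerebellum (adjusted p = 0.049). No low-count filter gave 1 for the Cic-S-KO interaction of lung with cerebellum, as did the fit without replicate 6 of Cic-S-KO cerebellum.

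Leaving out 1 sample gave 4 to 5 calls in Cic-S-KO lung, 1 to 2 in Cic-L-KO lung and 1 to 3 between these knockouts; 0 to 0, 1 to 3 and 1 to 2 in cortex; and 1 to 1, 0 to 1 and 1 to 2 in cerebellum. By the labels, same-numbered samples of different genotypes share only a number, and 3 to 6 pairs per comparison had a correlation above 0.1. In lung, 6 of 8 WT samples were best with their own number in Cic-L-KO (highest r 0.424) and 4 of 8 in Cic-S-KO. Between the lung knockouts it was 2 of 8, and what such samples share was not tested. Between cortex and cerebellum of 1 genotype, 7 of 7 Cic-S-KO pairs had a correlation above 0.1, with a lowest r of 0.155. Of these, 6 of 7 were best with their own number. In WT a correlation above 0.1 was found in 7 of 8 pairs and in Cic-L-KO in 4 of 8. Of the 8 samples each, 4 in WT and 1 in Cic-L-KO were best with their own number. Whether such samples share an animal was not tested. A replicate block within genotype left the members called between the brain regions as they were: 4 between WT samples (Timp3 with the highest adjusted p, 0.012), 0 for the Cic-S-KO effect and 1 for the Cic-L-KO effect (Mmp8, adjusted p = 0.025). With the replicate block, Cic-L-KO cortex had 2 calls (Mmp11 and Timp1) and the Cic-S-KO interaction of lung with cerebellum 1 (Timp3). Replicate numbers are those of the sample titles. In Cic-S-KO cortex and cerebellum they differ from the library names, which skip number 2. After replicate 1, the block and the pairs between genotypes therefore joined Cic-S-KO brain samples with samples of another library number. Depth limits Mmp3 everywhere, Mmp12 in brain and Mmp8 in cortex.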
